A study of Mus musculus with 12 samples.

Results

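Heme, iron and antioxidant genes were followed in macrophages sorted from mouse tumours. The set holds 36 genes named for their roles, and all 36 were found among the 24346 gene symbols measured by bulk RNA-seq. All 36 also passed the filter of at least 1 FPKM in at least 3 libraries, as did 11808 genes of the whole table. FPKM is a level scaled to transcript length and library size, so levels of different genes can be set side by side.

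The cells came from Arg1-RFP mice, in which a red fluorescent protein reports arginase 1. Every animal carried the reporter, and the titles of the libraries call it mche. The mice bore B16F10 tumours, a melanoma line, or MC38 tumours, a colon carcinoma line. Sorting kept cells positive for CD11b, F4/80, MHCII and CD45 and removed cells bearing CD90.2, B220, NK1.1, Ly6G or Ly6C. These macrophages were then gated on the reporter, as RFP+ and RFP- cells. There were 4 groups of 3 libraries: B16F10 RFP+, B16F10 RFP-, MC38 RFP+ and MC38 RFP-. The title numbers were 12, 11 and 3 in both B16F10 gates and 1, 2 and 3 in both MC38 gates. Strain, sex, age and the time after tumour transfer are not given in the labels. The labels do not say which animal a library came from, so p-values measure the spread between these libraries, which may be partly technical.

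Macrophages take up dying red cells, release iron from their heme and either store that iron in ferritin or export it through ferroportin. Free heme and iron drive the formation of peroxides. The transcription factor NRF2 answers such stress by inducing enzymes of glutathione and thioredoxin metabolism, while KEAP1 leads NRF2 to degradation. BACH1 represses several of the same genes, Hmox1 among them, until heme binds it. Iron itself is sensed through 2 RNA-binding proteins that attach to hairpins in the transcripts of ferritin, ferroportin and the transferrin receptor.

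The gate was checked on Arg1, which was higher in RFP+ cells by 3.21 on the log2 scale in B16F10 and by 3.17 in MC38. Total FPKM per library ran from 614875 to 815591. Judged by the lowest values, the FPKM given to 1 read in a B16F10 library was 3.01 to 3.61 times that in MC38 RFP- library 2, so the B16F10 libraries were shallower. B16F10 RFP- library 12 stood apart, with the highest total and 10597 genes at 0, against 8479 to 10081 in the others. The 15 macrophage core genes were detected in both tumours, with a summed level of 6449 to 15926 FPKM in B16F10 and 29505 to 39985 FPKM in MC38. The 11 melanocytic genes summed to 8268 to 10868 FPKM in B16F10 and 11.3 to 19.4 FPKM in MC38, so the B16F10 libraries held much pigment cell RNA. In bulk samples, fewer cells of a type and less RNA per cell cannot be told apart.

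In both tumours RFP+ cells held more Hmox1, Gclm, Srxn1 and Mgst1 RNA than RFP- cells, in 6 of 6 library pairs each. They were among 8 members higher in all 6 pairs (22.2% of members, against 4.52% of all genes). Over the mean of both tumours, 3 of the 36 members rose in RFP+ cells, namely Hmox1, Gclm and Mgst1, and 0 fell (limma, Benjamini-Hochberg adjusted p under 0.05). That is 8.33% of members, against 0.339% of all genes called higher and 0.11% lower. With no filter on low values 0 members were called in the mean. Under scaling to the macrophage core genes 2 were, Hmox1 and Mgst1, against 0.307% of all genes, while Gclm missed the threshold (limma adjusted p = 0.141). Within B16F10 alone 0 members were called higher, against 0.127% of all genes, and 0 lower, against 0.0508%. Within MC38 alone 0 members were called in either direction, against 0.0254% of all genes higher and 0% lower. At an unadjusted p under 0.05 limma gave 6 members higher and 0 lower in each tumour. The shares of all genes at that p were 4.82% higher and 5% lower in B16F10, and 2.21% higher and 1.14% lower in MC38. With the title number as a block, 9 members were higher and 2 lower in B16F10 (Gpx4 and Sod1), against 8.53% and 9.85% of all genes, and 7 higher and 0 lower in MC38, against 3.96% and 2.13%. Leaving out MC38 RFP+ library 1 left 0 members called higher in the mean. Leaving out MC38 RFP+ library 2, RFP- library 2 or RFP- library 3 left 1. Over all 12 such fits Hmox1 stayed called in 7, Gclm in 2 and Mgst1 in 11.

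Libraries with the same title number deviated together, which is why the number was also fitted as a block. At an adjusted p under 0.05 with that block, 5 members rose in the mean of both tumours, namely Hmox1, Gclm, Srxn1, Mgst1 and Gstm1, and 0 fell. That is 13.9% of members, against 1.32% of all genes higher and 0.601% lower. In B16F10, 2 members rose, Hmox1 and Mgst1, against 0.83% of all genes, and 0 fell, against 0.525%. In MC38, 4 members rose, Hmox1, Slc48a1, Mgst1 and Gstm1, against 0.356% of all genes, and 0 fell, against 0.0847%. The median log2 difference over the 36 members was 0.14 in B16F10 and 0.17 in MC38, where the median of all genes was -0.012 and 0.0017. Without the pair of libraries numbered 12, the block called 2 members higher in B16F10, 6 in MC38 and 9 in the mean, against 0.851%, 1.05% and 1.87% of all genes. With the block and every library scaled to its macrophage core genes, it called 13, 2 and 9 higher, against 10.6%, 0.129% and 2.62% of all genes. The 13 in B16F10 were Hmox1, Slc40a1, Fth1, Ireb2, Fbxl5, Slc7a11, Gclc, Gclm, Srxn1, Prdx6, Cat, Mgst1 and Nqo1. Mgst1 and Gstm1 were the 2 in MC38. The 9 in the mean were Hmox1, Slc48a1, Fth1, Slc7a11, Gclm, Srxn1, Prdx6, Mgst1 and Gstm1. The core scaling moved the gate difference of all genes by a median of 0.34 in B16F10, 0.051 in MC38 and 0.19 in the mean. It did not level the core genes themselves. Their median gate difference went from 0.083 to 0.43 in B16F10, from 0.045 to 0.0996 in MC38 and from 0.17 to 0.37 in the mean.

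**Figure D1:**
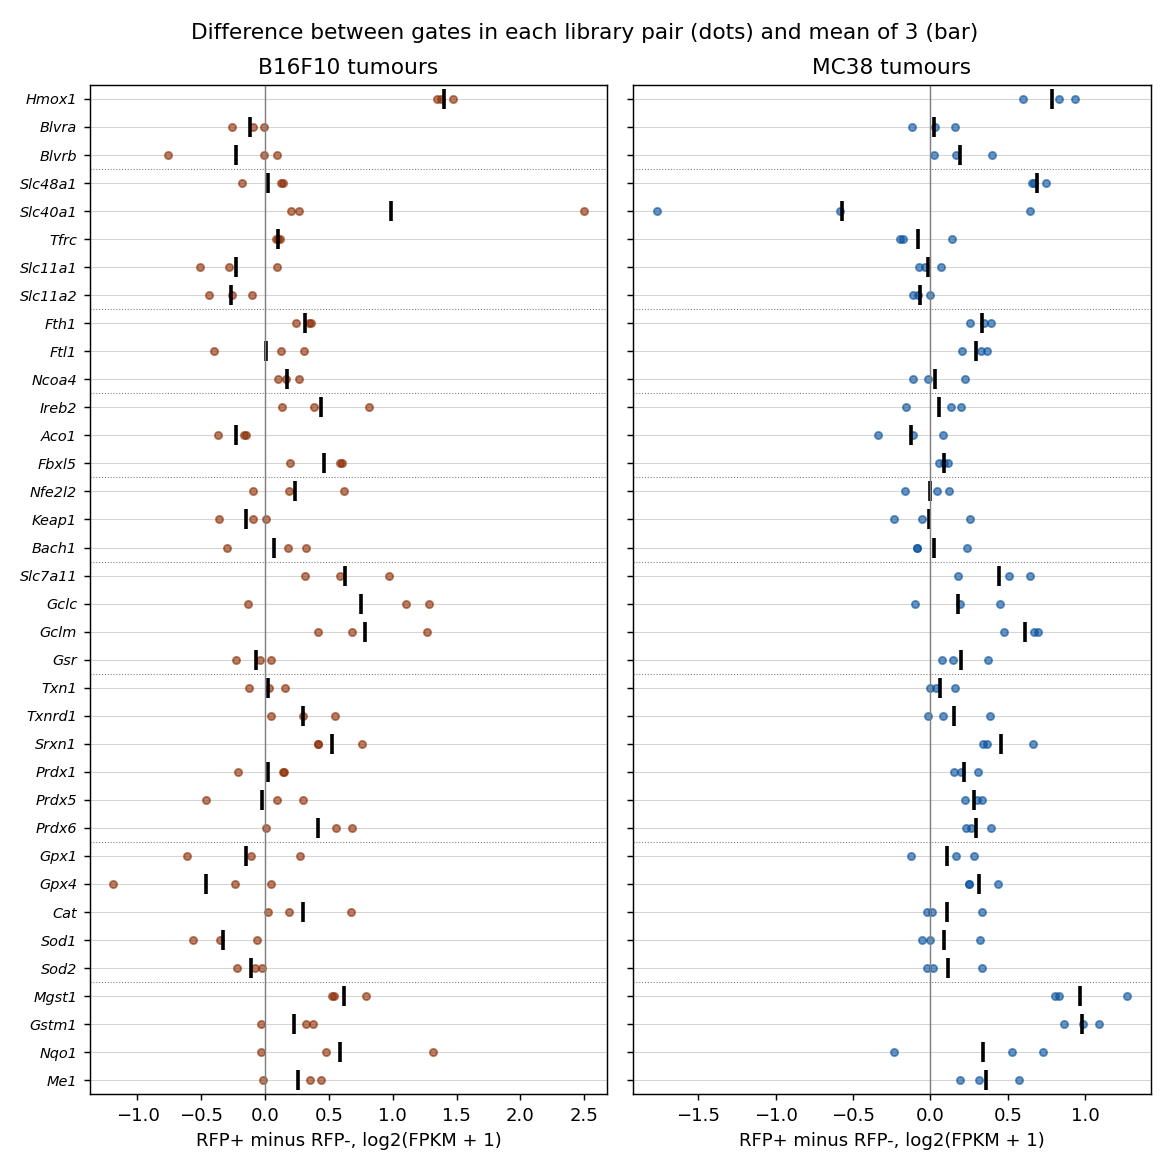
RFP+ minus RFP- difference of each of the 36 members on the log2(FPKM + 1) scale, B16F10 on the left and MC38 on the right, with genes grouped by role. Dots are the 3 library pairs of a tumour and the bar is their mean. Hmox1, Gclm, Srxn1 and Mgst1 are among the 8 members above 0 in all 6 pairs, while Slc40a1 scatters widely in both tumours.

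By ranges alone, 7 members had every B16F10 RFP+ library above every RFP- library, which is 19.4% of members against 5.72% of all genes. They were Hmox1, Fth1, Ireb2, Gclm, Srxn1, Prdx6 and Mgst1. Only Sod2 among the members lay wholly lower there, 2.78% against 6.22% of all genes. In MC38, 12 members lay wholly higher, 33.3% against 6.33% of all genes, and 0 wholly lower, against 4.98%. Those 12 were Hmox1, Slc48a1, Fth1, Ftl1, Gclm, Srxn1, Prdx1, Prdx5, Prdx6, Gpx4, Mgst1 and Gstm1. All 6 pairs were higher for 8 members, which adds Fbxl5 and Slc7a11 to those shared by both tumours (22.2% against 4.52% of all genes). All 6 pairs were lower for Slc11a2 alone (2.78% against 4.01% of all genes).

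Hmox1 encodes heme oxygenase 1, which opens heme to biliverdin, carbon monoxide and iron, and it lies at chr8:75093621-75100589 on the plus strand (GRCm38). Its level in B16F10 libraries 12, 11 and 3 was 1039.7, 553 and 792 FPKM in RFP+ cells and 399, 217 and 285 FPKM in RFP- cells. In MC38 libraries 1, 2 and 3 it was 227, 183 and 147 FPKM in RFP+ cells and 127, 95.3 and 96.9 FPKM in RFP- cells. The gates did not overlap in either tumour, and each RFP+ library exceeded its RFP- partner. The ratio within pairs was 2.55 to 2.78 in B16F10 and 1.52 to 1.92 in MC38.

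On the log2 scale the Hmox1 difference over both tumours was 1.09 ± 0.18 (SE, limma adjusted p = 0.0194; 5.6e-05 with the block). Within B16F10 it was 1.40 ± 0.26 (limma adjusted p = 0.0549), past the threshold with the block (adjusted p = 0.000199). Within MC38 it was 0.79 ± 0.26 (limma adjusted p = 0.912), past the threshold with the block (adjusted p = 0.012) but not with the block and core scaling together (adjusted p = 0.14). The call in the mean was lost on leaving out any of 5 libraries, B16F10 RFP+ 3, MC38 RFP+ 1 or 2, and MC38 RFP- 2 or 3, with limma adjusted p of 0.0555 to 0.0726.

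Hmox1 followed the title numbers in B16F10 in both gates, with library 12 highest and library 11 lowest. The summed macrophage core genes had the same order, at 15926, 7537 and 12520 FPKM in RFP+ libraries 12, 11 and 3 and 14881, 6449 and 11425 FPKM in RFP- libraries. Set against that sum, Hmox1 came to 67.3 ± 5.3 FPKM per 1000 FPKM of core genes in B16F10 RFP+ cells and 28.4 ± 4.6 in RFP- cells (SD, n = 3). In MC38 the same measure was 4.71 ± 0.98 and 3.44 ± 0.60. There the gates overlapped on it, since the lowest RFP+ library was at 3.82 and the highest RFP- library at 4.11. The sum gives most weight to abundant genes such as Lyz2. Core scaling uses the median core gene instead, so these are different measures. The 10 erythroid genes measured summed to 79.6 to 392 FPKM in B16F10 and 3.55 to 14.9 FPKM in MC38, and none was at 0 in all libraries of a tumour. Library 3 held the most erythroid RNA in both B16F10 gates, not library 12. The gates of a pair held like sums, 145 and 132 FPKM in the pair numbered 12. The part of erythroid RNA in the Hmox1 difference between tumours was not tested.

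**Figure D2:**
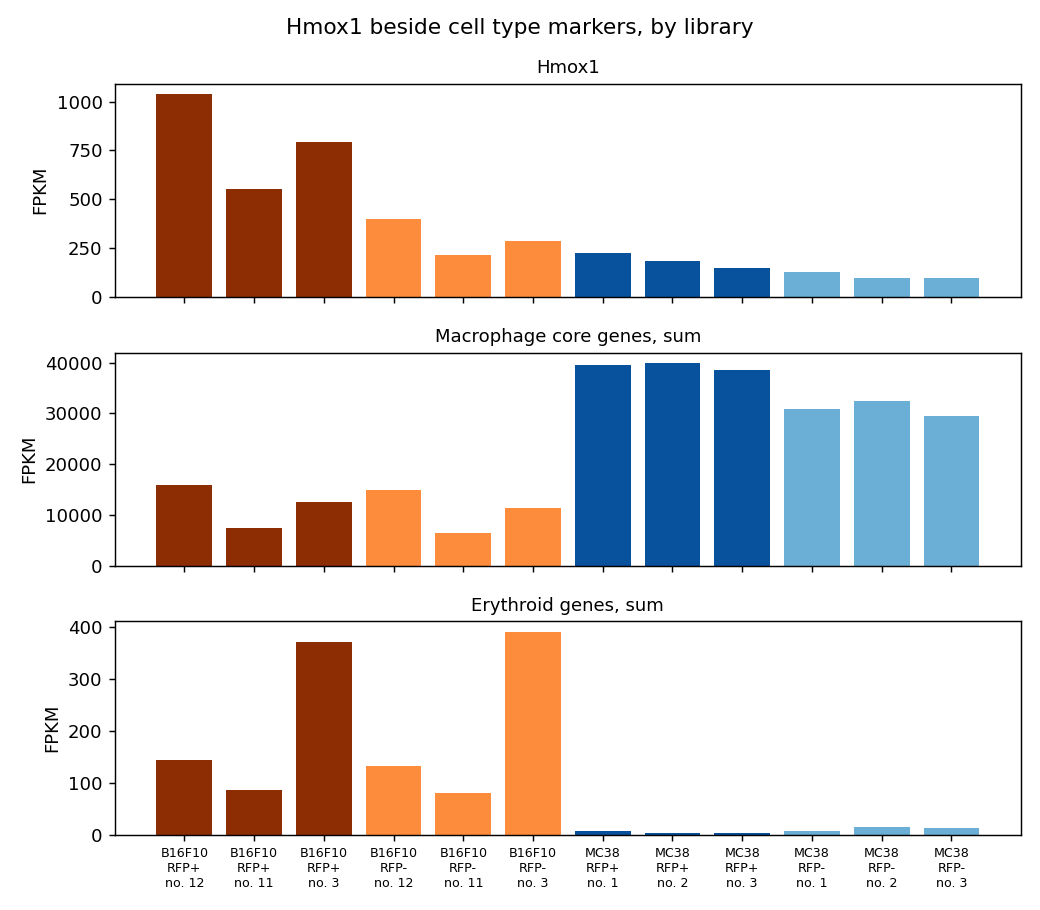
Hmox1 level (top), summed level of 15 macrophage core genes (middle) and summed level of erythroid genes (bottom) in each of the 12 libraries, in FPKM, with bars starting at 0. Hmox1 is highest in the 3 B16F10 RFP+ libraries, while the macrophage core sum is highest in MC38 and the erythroid sum peaks in both B16F10 libraries numbered 3.

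The enzymes that act after heme oxygenase did not pass the test between gates. Blvra, biliverdin reductase A, was at 101 ± 7.3 and 110 ± 16 FPKM in B16F10 RFP+ and RFP- cells, and at 104 ± 7.1 and 102 ± 3.0 FPKM in MC38 (SD, n = 3). Its difference over both tumours was -0.05 on the log2 scale, with a 95% interval from -0.24 to 0.15. Blvrb, biliverdin reductase B, had a difference of -0.02 with an interval from -0.42 to 0.39.

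Slc48a1 encodes a transporter that carries heme out of the phagolysosome, and it lies at chr15:97778520-97792692 on the plus strand. The levels in MC38 libraries 1, 2 and 3 were 69.8, 68.7 and 66.5 FPKM in RFP+ cells and 41.2, 42.9 and 41.8 FPKM in RFP- cells. In B16F10 libraries 12, 11 and 3 they were 121, 89.8 and 97.0 FPKM in RFP+ cells and 138, 81.6 and 88.8 FPKM in RFP- cells. The MC38 gates were far apart, and the B16F10 gates overlapped. The MC38 difference was 0.69 ± 0.18 on the log2 scale (limma adjusted p = 0.395; 0.0311 with the block, and 0.259 with the block and core scaling). In B16F10 it was 0.03 ± 0.18. The difference between these effects, -0.66 with a 95% interval from -1.21 to -0.12, did not pass (limma adjusted p = 0.895, and 0.392 with the block). Over both tumours the gate difference was 0.36 ± 0.13 (limma adjusted p = 0.491, and 0.0537 with the block). With the block and core scaling together it passed (adjusted p = 0.0303).

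Slc40a1 encodes ferroportin, the known iron exporter of vertebrate cells. It read 71.2, 9.76 and 23.6 FPKM in B16F10 RFP+ libraries 12, 11 and 3, and 11.8, 7.94 and 20.4 FPKM in their RFP- partners. In MC38 it read 4.72, 5.81 and 1.74 FPKM in RFP+ libraries 1, 2 and 3, and 2.67, 9.21 and 8.35 FPKM in RFP- libraries. RFP+ library 12 stood alone, 6.04 times its partner, and the gates overlapped in both tumours. The difference was 0.99 ± 0.61 in B16F10 and -0.57 ± 0.61 in MC38, and neither passed limma (adjusted p = 0.523 and 1). The B16F10 difference passed with the block and core scaling together (limma adjusted p = 0.0445). Tfrc, the transferrin receptor that brings in iron, and the iron transporters Slc11a1 of the phagosome and Slc11a2 of the endosome differed by -0.27 to 0.10 between gates, none past the threshold.

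Ferritin was the most abundant product of the set. Its subunits are the heavy chain Fth1, which oxidizes iron, and the light chain Ftl1, which helps build the mineral core. Ftl1 had the highest FPKM of all genes in 6 of 6 B16F10 libraries and ranked 5 to 7 in MC38. Fth1 ranked 2 to 3 in B16F10 and 3 to 4 in MC38. In RFP+ cells Fth1 read 9482, 8055 and 9046 FPKM in B16F10 libraries 12, 11 and 3, and 8021, 6336 and 7056 FPKM in RFP- cells. In MC38 libraries 1, 2 and 3 it read 16263, 17694 and 15932 FPKM in RFP+ cells and 12374, 14794 and 12505 FPKM in RFP- cells. RFP+ libraries lay above RFP- libraries in both tumours without overlap. The difference over both tumours, 0.32 ± 0.12 on the log2 scale, still missed the threshold (limma adjusted p = 0.544, and 0.248 with the block). With the block and core scaling together it passed (adjusted p = 0.0228). Ftl1 read 17793, 15970 and 17178 FPKM in B16F10 RFP+ cells and 23449, 12939 and 15780 FPKM in RFP- cells. In MC38 it read 11490, 11614 and 10750 FPKM in RFP+ cells and 8924, 10100 and 8577 FPKM in RFP- cells. The highest Ftl1 value belonged to B16F10 RFP- library 12.

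The ratio of Fth1 to Ftl1 separated the tumours in every library. It ran from 0.342 to 0.533 in the 6 B16F10 libraries and from 1.39 to 1.52 in the 6 MC38 libraries. A ratio within a library does not move with scaling of that library. It shows unequal levels of the chains, and does not show which chain changed or in which cells. The annotation lists 2 pseudogenes named for Fth and 3 named for Ftl, and copies under other names were not looked for. How the counting shared reads among copies can therefore affect both chains.

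**Figure D3:**
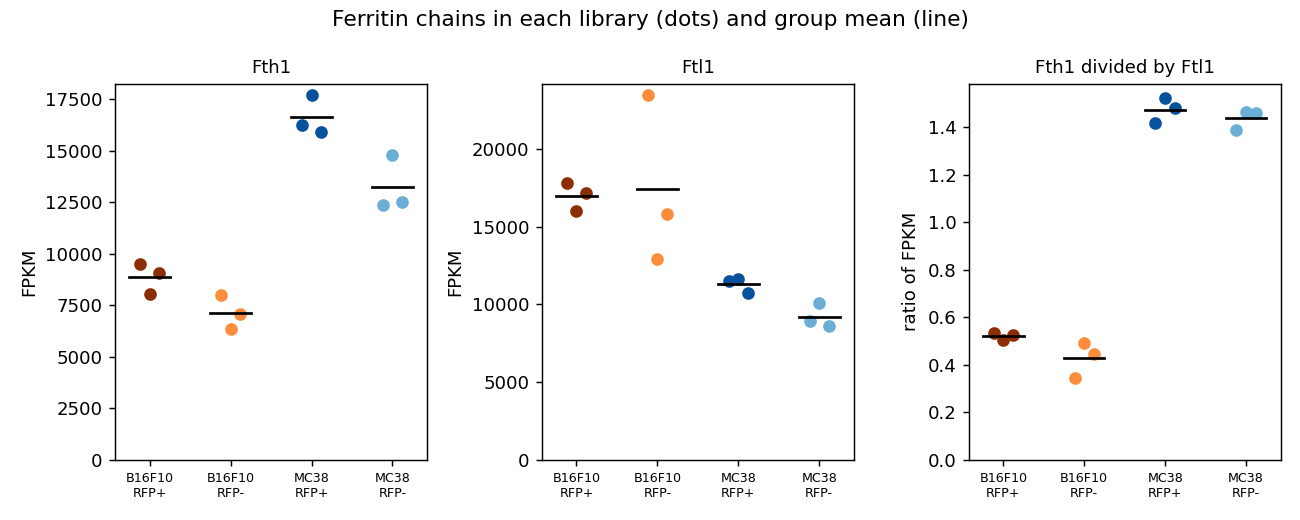
Fth1 level, Ftl1 level (both in FPKM) and their ratio in the 4 groups, with dots for the 3 libraries of a group and a line for their mean, on axes from 0. The ratio runs from 0.342 to 0.533 in B16F10 and from 1.39 to 1.52 in MC38, and Fth1 is higher in RFP+ than in RFP- cells of each tumour.

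The RNA level is only a part of iron control, because iron regulatory proteins bind hairpins called iron-responsive elements. Such a hairpin before the coding sequence holds back translation when iron is low, and hairpins after it stabilize the transcript. A search of the transcripts for a bulged C, a stem of 5 pairs (G-U allowed) and the loop CAGTGN, with no G as its last base, found 222 of 21877 genes with a match (1.01%). Among the 36 members 5 held a match: Fth1, Ftl1, Slc40a1, Tfrc and Keap1. Hairpins of other forms were not searched for, so a member without a match may still hold an iron-responsive element. The sites of Fth1, Ftl1, Slc40a1 and Tfrc are shown because they lie outside the coding sequence. Each is a stretch of 30 bases within 1 exon, read 5′ to 3′ from GENCODE transcripts (GRCm38), with the loop in capitals.
Fth1, 5′ UTR, chr19:9982731-9982760, plus strand: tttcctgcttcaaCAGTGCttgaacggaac
Ftl1, 5′ UTR, chr7:45459779-45459808, minus strand: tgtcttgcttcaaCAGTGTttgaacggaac
Slc40a1, 5′ UTR, chr1:45925465-45925494, minus strand: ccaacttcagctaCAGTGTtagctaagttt
Tfrc, 3′ UTR, chr16:32631218-32631247, plus strand: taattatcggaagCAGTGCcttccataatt
Tfrc, 3′ UTR, chr16:32631597-32631626, plus strand: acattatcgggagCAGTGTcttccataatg
Tfrc, 3′ UTR, chr16:32631662-32631691, plus strand: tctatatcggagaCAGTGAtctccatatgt
Tfrc, 3′ UTR, chr16:32631709-32631738, plus strand: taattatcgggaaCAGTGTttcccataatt
The Keap1 match lay in coding sequence. A match is a description of letters, and binding was not measured. Of the 4 genes with matches in a UTR, none passed the test between gates on the deposited scale, with or without the block. Fth1 and Slc40a1 passed with the block and core scaling together, as given above. The genes of iron sensing itself did not pass on the deposited scale either. With the block and core scaling together, Ireb2 and Fbxl5 passed in B16F10 (limma adjusted p = 0.0438 and 0.0214). Ireb2, which encodes an iron regulatory protein, read 5.81 ± 0.94 and 4.14 ± 1.42 FPKM in B16F10 RFP+ and RFP- cells (SD, n = 3). Aco1, which encodes another, differed by -0.23 in B16F10 and -0.12 in MC38 on the log2 scale. Fbxl5, which targets these proteins for degradation when iron is ample, was higher in 6 of 6 RFP+ libraries than in their partners, with a difference of 0.27 ± 0.17 (limma adjusted p = 0.741; 0.204 with the block). Ncoa4, the receptor that carries ferritin to the lysosome, differed by 0.17 in B16F10 and 0.03 in MC38.

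The 3 genes that control the NRF2 response showed no called difference between gates. Nfe2l2, which encodes NRF2, read 61.5, 65.7 and 62.4 FPKM in B16F10 RFP+ libraries 12, 11 and 3 and 39.7, 70.3 and 54.8 FPKM in RFP- libraries. In MC38 libraries 1, 2 and 3 it read 338, 266 and 322 FPKM in RFP+ cells and 311, 299 and 313 FPKM in RFP- cells. The gates overlapped in both tumours. Over both tumours the log2 difference was 0.12 (95% interval -0.15 to 0.38) for Nfe2l2, -0.08 (-0.42 to 0.26) for Keap1 and 0.04 (-0.29 to 0.38) for Bach1.

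Gclm encodes the modifier subunit of glutamate-cysteine ligase, the enzyme that starts glutathione synthesis, and it lies at chr3:122245557-122270732 on the plus strand. It read 33.3, 23.2 and 19.6 FPKM in B16F10 RFP+ libraries 12, 11 and 3 and 13.2, 14.1 and 14.5 FPKM in RFP- libraries. In MC38 libraries 1, 2 and 3 it read 22.3, 19.3 and 18.4 FPKM in RFP+ cells and 13.7, 13.6 and 11 FPKM in RFP- cells. The gates did not overlap in either tumour. The difference over both tumours was 0.70 ± 0.13 (limma adjusted p = 0.0407; 0.016 with the block), or 1.62-fold. On the deposited scale Gclm missed the threshold within each tumour, with and without the block. With the block and core scaling together it passed in B16F10 (limma adjusted p = 0.00615). The call in the mean was lost on leaving out any of 10 of the 12 libraries, all but B16F10 RFP+ library 3 and RFP- library 11, with adjusted p from 0.0321 to 0.131 over the 12 fits.

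The other glutathione genes were not called on the deposited scale. With the block and core scaling together, Slc7a11 passed in B16F10 and in the mean (limma adjusted p = 0.0204 and 0.0331). Gclc passed so in B16F10 (adjusted p = 0.0258). Gclc, the catalytic subunit of the same ligase, read 11.6, 8.61 and 13.9 FPKM in B16F10 RFP+ libraries 12, 11 and 3 and 4.17, 9.55 and 5.93 FPKM in RFP- libraries, so pair 11 went the other way. Its difference over both tumours was 0.47 ± 0.19 (limma adjusted p = 0.577). Slc7a11, the cystine importer, was low at 0.984 to 6.13 FPKM, yet higher in 6 of 6 RFP+ libraries than in their partners (0.53 ± 0.21, limma adjusted p = 0.561; 0.113 with the block). Gsr, glutathione reductase, differed by 0.06.

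Srxn1 encodes sulfiredoxin, which repairs overoxidized peroxiredoxins, and it lies at chr2:152105516-152111376 on the plus strand. It read 33.3, 27.4 and 26.6 FPKM in B16F10 RFP+ libraries 12, 11 and 3 and 19.3, 20.4 and 19.7 FPKM in RFP- libraries. For MC38 the values were 62.4, 62.8 and 83.5 FPKM in RFP+ cells and 48.1, 49.5 and 52.4 FPKM in RFP- cells, in the order 1, 2 and 3. The RFP- libraries of each tumour were close together and all below the RFP+ libraries. The difference over both tumours was 0.49 ± 0.10 (limma adjusted p = 0.0661; 0.0233 with the block).

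Gclm and Srxn1 rose together with the block, and NRF2 is known to act through the antioxidant response element, so the promoters were searched on both strands for TGACNNNGC and TGAGNNNGC. In the 250 bases before the start, 13 of the 28 members in the RefSeq promoter table held at least 1 of these motifs, against 25.7% of 27025 genes (23% of 32851 windows). TGACNNNGC was in 8 of the 28 and in 11.5% of genes, and TGAGNNNGC in 5 of the 28 and in 16.3% of genes. Hmox1, Slc48a1, Slc40a1, Slc11a2, Fbxl5, Gclc, Gsr and Prdx6 were not matched in the table. Of the members called between gates on the deposited scale, with or without the block, Gclm, Srxn1 and Mgst1 held a match and Gstm1 held none in this window. The other members with a match were Blvra, Blvrb, Slc11a1, Ncoa4, Aco1, Nfe2l2, Slc7a11, Txnrd1, Prdx1 and Sod1. None of these was called between gates in those fits. The windows of Gclm and Srxn1 are shown 5′ to 3′ with the matches in capitals (RefSeq, GRCm38.p6).
Gclm, chr3:122245307-122245556, plus strand, matching on the minus strand: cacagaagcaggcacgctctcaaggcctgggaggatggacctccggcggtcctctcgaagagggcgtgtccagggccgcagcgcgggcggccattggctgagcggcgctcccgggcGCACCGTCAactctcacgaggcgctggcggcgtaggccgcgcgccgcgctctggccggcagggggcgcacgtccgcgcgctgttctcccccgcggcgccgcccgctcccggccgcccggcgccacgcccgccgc
Srxn1, chr2:152105274-152105515, plus strand, matching on the minus and then the plus strand: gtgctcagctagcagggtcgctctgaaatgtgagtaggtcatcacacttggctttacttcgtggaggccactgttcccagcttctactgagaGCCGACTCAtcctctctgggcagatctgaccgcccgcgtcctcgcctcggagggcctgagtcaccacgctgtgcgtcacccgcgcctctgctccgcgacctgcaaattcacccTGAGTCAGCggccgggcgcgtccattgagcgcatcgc
These matches describe letters in a window, and no binding was measured.

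The rest of the thioredoxin system was not called between gates on the deposited scale. Prdx6, a peroxiredoxin that also acts on phospholipids, was higher in 6 of 6 RFP+ libraries than in their partners. Its levels were 103, 135 and 125 FPKM in B16F10 RFP+ libraries 12, 11 and 3 and 102, 91.2 and 77.8 FPKM in RFP- libraries. Its difference over both tumours was 0.36 ± 0.10 (limma adjusted p = 0.264, and 0.124 with the block). With the block and core scaling together Prdx6 passed in B16F10 and in the mean (adjusted p = 0.0285 and 0.0389). Txnrd1, thioredoxin reductase, differed by 0.22 ± 0.10, and Txn1, thioredoxin itself, by 0.04 ± 0.10. The abundant peroxiredoxins Prdx1 and Prdx5 differed by 0.12 and 0.13 over both tumours.

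Of 5 enzymes that remove peroxide and superoxide, 0 were called between gates on the deposited scale. With the block and core scaling together, catalase passed in B16F10 (limma adjusted p = 0.0463). Over both tumours the log2 differences were -0.02 for Gpx1, -0.07 for Gpx4, 0.20 for catalase (Cat), -0.12 for Sod1 and 0.002 for Sod2. Gpx4, which reduces lipid peroxides and protects from ferroptosis, read 487, 525 and 442 FPKM in B16F10 RFP+ libraries 12, 11 and 3 and 1113, 509 and 520 FPKM in RFP- libraries. RFP- library 12 stood apart from the 5 others. In MC38, Gpx4 read 236, 244 and 230 FPKM in RFP+ cells and 198, 205 and 170 FPKM in RFP- cells, without overlap.

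Mgst1 encodes a membrane-bound glutathione transferase that also reduces lipid peroxides, and it lies at chr6:138140316-138156755 on the plus strand. It read 52.1, 42.0 and 42.4 FPKM in B16F10 RFP+ libraries 12, 11 and 3 and 29.7, 28.6 and 29.2 FPKM in RFP- libraries. MC38 libraries 1, 2 and 3 held 181, 148 and 144 FPKM in RFP+ cells and 101, 84.3 and 59.2 FPKM in RFP- cells. The gates did not overlap in either tumour. The difference over both tumours was 0.79 ± 0.13, or 1.73-fold (limma adjusted p = 0.0156; 0.00115 with the block). It was 0.62 ± 0.18 in B16F10 (limma adjusted p = 0.343; 0.0485 with the block) and 0.97 ± 0.18 in MC38 (0.111 and 0.0108). Without the pair numbered 12 the B16F10 value with the block was 0.53, past the threshold no longer (adjusted p = 0.0908). The call in the mean was lost only without MC38 RFP+ library 1 (limma adjusted p = 0.0588).

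Gstm1, a cytosolic glutathione transferase, lies at chr3:108012255-108017973 on the minus strand. In MC38 libraries 1, 2 and 3 it read 40.3, 38.9 and 31.2 FPKM in RFP+ cells and 19.8, 21.0 and 14.1 FPKM in RFP- cells. In B16F10 libraries 12, 11 and 3 it read 105, 122 and 93.1 FPKM in RFP+ cells and 107, 93.7 and 74.4 FPKM in RFP- cells. The MC38 gates were well apart, and the B16F10 gates overlapped. The difference was 0.98 ± 0.18 in MC38 (limma adjusted p = 0.111; 0.00986 with the block) and 0.22 ± 0.18 in B16F10. Over both tumours it was 0.60 ± 0.13, with 5 of 6 pairs higher (limma adjusted p = 0.0831; 0.00571 with the block). The annotation lists 7 Gstm genes of similar sequence, so the share of reads given to Gstm1 is uncertain.

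Nqo1, a quinone reductase often read as an NRF2 target, lay close to the limit of detection. It read 0.0313 to 2.66 FPKM in B16F10 and 0.026 to 1.94 FPKM in MC38, and the gates overlapped in both. Me1, the malic enzyme that supplies NADPH, was higher in 5 of 6 pairs, with a difference of 0.31 ± 0.21 (limma adjusted p = 0.765).

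**Figure D4:**
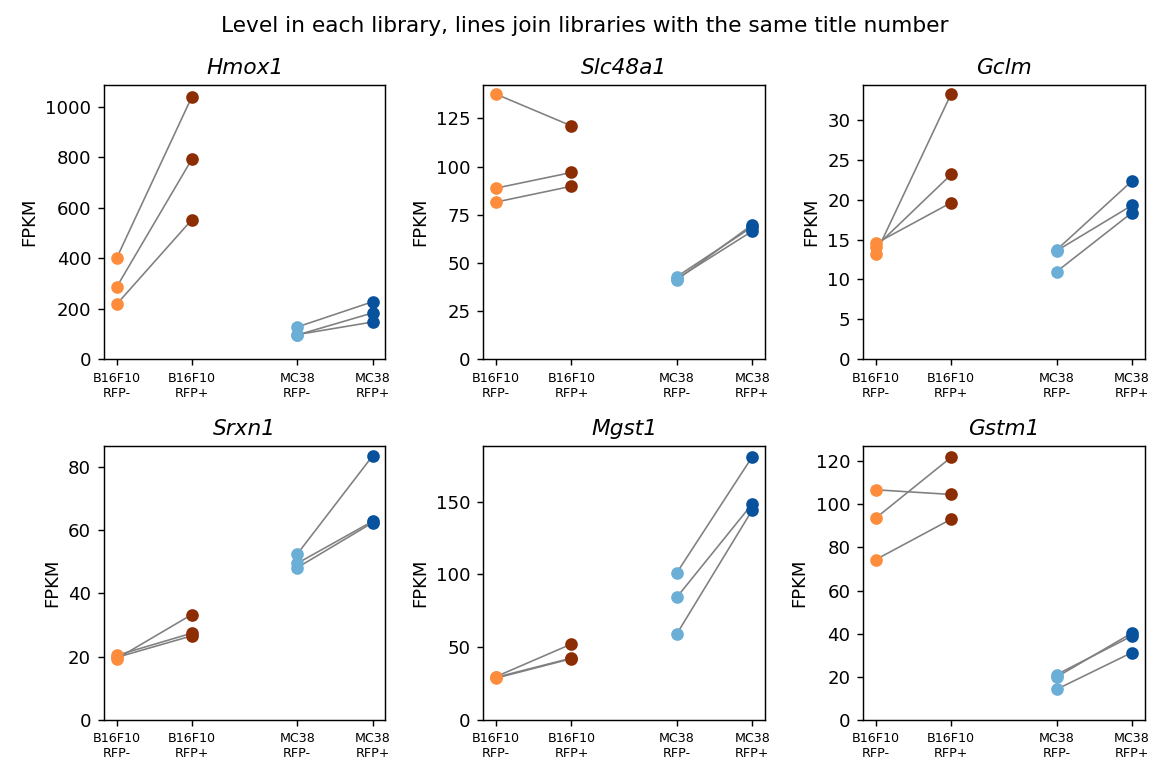
FPKM of the 6 members called between gates on the deposited scale, without or with the block, in each library on axes from 0. Lines join libraries with the same title number. Hmox1, Gclm, Srxn1 and Mgst1 are higher in RFP+ cells in every pair, whereas Slc48a1 and Gstm1 separate the gates in MC38 and overlap in B16F10.

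Whether the gate effect differed between tumours was tested directly. The test called 0 of 36 members, without and with the block, while 0% of all genes were called without it, and 0.0254% higher and 0.00847% lower with it. At an unadjusted p under 0.05 without the block, 0 members had the larger effect in B16F10 and 3 in MC38, namely Slc48a1, Gpx4 and Gstm1, against 1.66% and 2.19% of all genes. With the block, 2 were larger in B16F10, Hmox1 and Slc40a1, and 4 in MC38, Slc48a1, Gpx4, Sod1 and Gstm1, against 3.5% and 5.05%. Hmox1 had a difference of effects of 0.61 on the log2 scale, with a 95% interval from -0.17 to 1.40, and from 0.27 to 0.96 with the block (limma adjusted p = 0.895; 0.474 with the block). For Gstm1 it was -0.76, with an interval from -1.32 to -0.19 (limma adjusted p = 0.895; 0.392 with the block).

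Between tumours the members differed in both directions. On the deposited scale 25 of 36 members were called, which is 69.4% and equal to the 69.4% of all genes. Of these, 12 were higher in B16F10 (33.3% of members, against 44% of all genes) and 13 were lower (36.1%, against 25.4%). With the title number as a random block 12 were higher and 12 lower, against 41.3% and 23.9% of all genes. Scaling each library to its macrophage core genes moved the difference of all genes toward B16F10 by a median of 2.21 on the log2 scale, and then 35 members were higher and 0 lower, against 92.5% and 1.91% of all genes. The scaling overshot, since the median difference of the core genes themselves went from -1.84 to 0.65. A member near 0.65 under that scaling is thus level with them. All 13 members lower in B16F10 on the deposited scale turned to the other sign under that scaling. The directions below therefore hold for RNA per library as deposited. With ranges of 6 libraries, 7 members lay wholly higher in B16F10 (19.4%, against 31.9% of all genes) and 7 wholly lower (19.4%, against 17.5%).

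Among heme and iron genes, Tfrc differed most. Its lowest, median and highest levels were 60.2, 75.0 and 87.6 FPKM in B16F10 and 10.1, 11.7 and 13.5 FPKM in MC38. The ranges were far apart, and the difference was 2.53 ± 0.11 on the log2 scale (limma adjusted p = 6.4e-10). Hmox1 ran from 217 through 476 to 1039.7 FPKM in B16F10 and from 95.3 through 137 to 227 FPKM in MC38. Its ranges touched, since the lowest B16F10 RFP- library lay below the highest MC38 RFP+ library, and the difference was 1.76 ± 0.18 (limma adjusted p = 1.6e-06). Slc40a1 (1.71 ± 0.43), Slc48a1 (0.90 ± 0.13) and Ftl1 (0.73 ± 0.15) were also higher in B16F10.

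Slc11a1, which pumps metal ions out of the phagosome, ran from 72.7 through 96.5 to 145 FPKM in B16F10 and from 276 through 355 to 369 FPKM in MC38. Its difference was -1.77 ± 0.15 as deposited (limma adjusted p = 3e-07) and 0.70 under core scaling. Fth1 was lower in B16F10 by -0.90 ± 0.12 as deposited, but 0.26 under quantile normalization and 1.58 under core scaling. Blvrb (-0.99 ± 0.19) and Fbxl5 (-0.50 ± 0.17) were likewise lower as deposited and turned to 1.48 and 1.93 under core scaling. The ratio of Slc11a1 to Slc11a2 was 2.63 to 4.22 in B16F10 and 11.7 to 14.4 in MC38. Such a ratio is free of library scaling but not of the mix of cells in a library.

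Nfe2l2 had the largest drop in B16F10 among the members as deposited, -2.38 ± 0.12 (limma adjusted p = 2.2e-09), and 0.08 under core scaling. Its lowest, median and highest levels were 39.7, 62.0 and 70.3 FPKM in B16F10 and 266, 312 and 338 FPKM in MC38. Keap1 differed little as deposited (-0.24 ± 0.16, limma adjusted p = 0.199). The ratio of Nfe2l2 to Keap1 was 1.69 to 5.86 in B16F10 and 13.8 to 19.7 in MC38, without overlap, and it too can move with the mix of cells. Bach1 ran from 1.38 to 2.49 FPKM in B16F10 and from 4.93 to 8.07 FPKM in MC38 (-1.34 ± 0.15 as deposited, 0.58 under core scaling), levels near the limit of the shallower B16F10 libraries. Slc7a11, also low, was at -0.60 ± 0.21 as deposited and 1.18 under core scaling.

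The antioxidant enzymes split by gene, also within a family. Gpx4 ran from 442 through 515 to 1113 FPKM in B16F10 and from 170 through 218 to 244 FPKM in MC38, higher in B16F10 by 1.41 ± 0.17 (limma adjusted p = 5.5e-06). Gstm1 ran from 74.4 through 99.1 to 122 FPKM in B16F10 and from 14.1 through 26.1 to 40.3 FPKM in MC38 (1.89 ± 0.13, limma adjusted p = 3.5e-08). Me1 ran from 15.2 through 23.4 to 34.6 FPKM and from 3.57 through 6.72 to 9.39 FPKM (1.77 ± 0.21, limma adjusted p = 7.2e-06). Prdx1 (0.58 ± 0.11), Prdx6 (0.53 ± 0.10), Sod1 (0.50 ± 0.13) and Gsr (0.39 ± 0.14) were higher by less.

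Prdx5, a peroxiredoxin of mitochondria and peroxisomes, ran from 195 through 244 to 331 FPKM in B16F10 and from 716 through 868 to 973 FPKM in MC38. Its difference was -1.75 ± 0.12 as deposited (limma adjusted p = 2.5e-08) and 0.72 under core scaling. Mgst1 ran from 28.6 through 35.9 to 52.1 FPKM in B16F10 and from 59.2 through 123 to 181 FPKM in MC38, a difference of -1.60 ± 0.13 as deposited and 0.85 under core scaling. Srxn1 stood at -1.26 ± 0.10 as deposited and 1.16 under core scaling. Smaller drops as deposited were those of Txn1 (-0.32), Gpx1 (-0.38) and Cat (-0.35), which turned to 2.16, 2.11 and 2.08 under core scaling. With the title number as a random block Gpx1 was no longer called (limma adjusted p = 0.0602). Melanocytic RNA and macrophage RNA moved with the tumour in opposite directions, and the part of either in these differences cannot be told apart from the tumour.

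**Figure D5:**
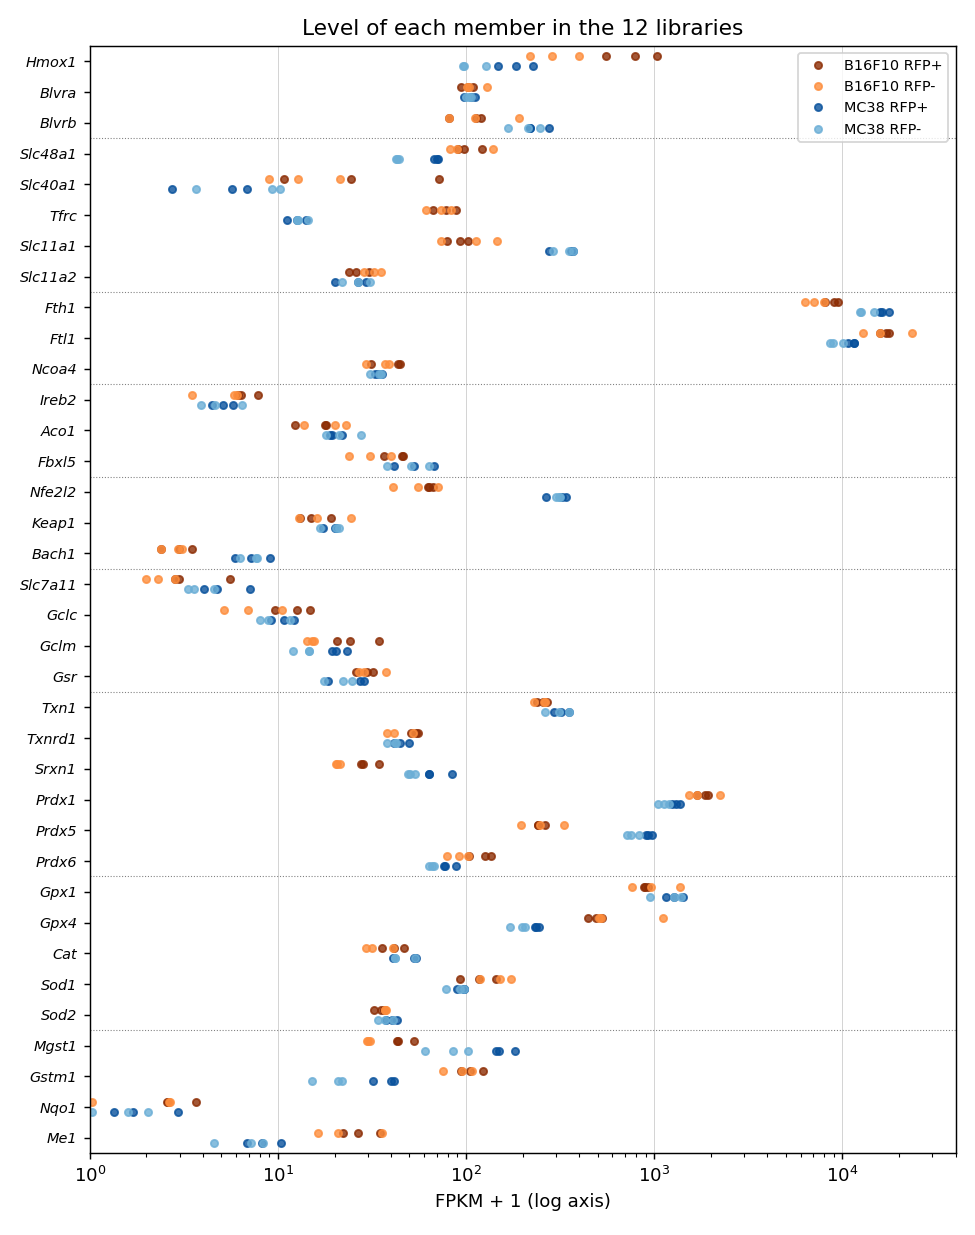
Level of each of the 36 members in the 12 libraries, as FPKM + 1 on a log axis, coloured by group, with B16F10 libraries on the upper and MC38 libraries on the lower line of each gene. Tfrc, Gpx4, Gstm1 and Me1 lie higher in B16F10 on this deposited scale, and Nfe2l2, Slc11a1, Prdx5 and Mgst1 lie lower there. Scaled to macrophage core genes, those 4 differences come to 0.08, 0.70, 0.72 and 0.85. The core genes themselves are then at a median of 0.65.

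Other genes of the same pathways, outside the 36, were read from 8 lists. Without the block, 0 genes of any of these lists were called between gates in either tumour or in the mean. The block called 1.32% of all genes higher and 0.601% lower in the mean, 0.83% and 0.525% in B16F10, and 0.356% and 0.0847% in MC38. With it, 3 of 27 other NRF2-linked genes rose in the mean of both tumours and 0 fell. They were Esd, the esterase that takes part in formaldehyde removal with glutathione (0.41 ± 0.08, limma adjusted p = 0.0286), Idh1, which supplies NADPH (0.37 ± 0.08, adjusted p = 0.0345), and Abcc1, which exports glutathione conjugates (0.49 ± 0.11, adjusted p = 0.0459). Among 14 tested iron handling genes, 1 rose, the iron carrier transferrin (Trf), in MC38 (0.59 ± 0.11, adjusted p = 0.0472) and in the mean (0.37 ± 0.08, adjusted p = 0.0328). Of 11 heme scavenging and transport genes, 1 rose in B16F10, the hemoglobin-haptoglobin receptor Cd163 (0.97 ± 0.20, adjusted p = 0.0441), at 2.42 to 2.93 FPKM in RFP+ and 0.586 to 1.06 FPKM in RFP- cells. Of 8 NADPH oxidase genes, which make superoxide, 1 fell in the mean, Rac2 (-0.38 ± 0.08, adjusted p = 0.0328). Of 9 tested ferroptosis-linked genes that are no members, 1 rose in B16F10, Ptgs2, a cyclooxygenase (1.29 ± 0.19, adjusted p = 0.00885), which also rose in the mean (0.84 ± 0.14, adjusted p = 0.0112). Heme synthesis (10 genes), iron-sulfur cluster assembly (13) and the other thioredoxin and peroxidase genes (19) had 0 calls between gates with the block.

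Between tumours, as deposited, 6 of 10 heme synthesis genes and 11 of 13 iron-sulfur cluster genes were higher in B16F10 and 0 lower. Of the NADPH oxidase genes 6 of 8 were lower in B16F10 as deposited and 0 higher, Cybb by -2.81 and Ncf1 by -2.11 among them. Under core scaling the median of that list moved from -1.53 to 0.91. Among 27 other NRF2-linked genes 12 were higher and 6 lower in B16F10. These shares stand beside 44% of all genes higher and 25.4% lower.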

How the data were processed

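Per the labels' protocols, RNA was extracted with TRI Reagent and libraries were prepared by Nextera XT from SMART-Seq HT cDNA. The authors deposited 1 table of FPKM values per library. The tools were Cuffdiff 2.2.1, SAMtools 0.1.18, Bowtie2 2.2.8 and TopHat2 2.1.1 with the mm10 genome, per the submitters' processing notes. For the strand setting, the annotation and any scaling across libraries, the sources used here give nothing. Genes that overlap or share sequence with copies may therefore have mixed reads.

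Values were taken as log2(FPKM + 1), a scale that understates changes of low genes. A gene was kept if it reached 1 FPKM in 3 or more of the 12 libraries (11808 of 24346). No 2 libraries were identical. Tests used limma 3.58.1 in R 4.3.3 (lmFit, eBayes with a trend) on 4 group means with 8 residual degrees of freedom. They were two-sided, with Benjamini-Hochberg adjustment over all genes kept and a threshold of 0.05. Errors beside log2 differences are SE, and those beside levels are SD of 3 libraries. The script was tested on simulated data.

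Same title numbers gave correlated deviations from group means in 6 of 6 pairs (r from 0.228 to 0.443, against -0.306 to 0.0178 for different numbers). The number was therefore also fitted as a block within tumour (4 residual degrees of freedom), and as a random block between tumours (correlation 0.291).

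The members, lists, tests and the rule for named genes were chosen with earlier results of these data known. Members called between gates, with or without the block, are given by library. Other members, also those called between tumours, are given by library, group means, ranges or differences. Up to 4 called genes per related list are named. Cybb and Ncf1 were named after their values were seen. The hairpin search used GENCODE transcripts, and promoters came from RefSeq tables. Figures were drawn with matplotlib. Alternatives were pseudocounts of 0.1 and 5, no filter, quantile normalization, scaling to the macrophage core genes, the compared groups alone, the block and leaving out each library. The block without the number 12 pair and the block with core scaling were added after seeing the data.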

Additional observations from a re-analysis of the deposited data

How the results depend on the processing

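The count of members called higher in RFP+ cells over both tumours was 3, and it came to 0 with no filter on low values, 5 under quantile normalization, 5 with the title number as block, 2 under core scaling, 9 with the block but without the pair numbered 12, and 9 with the block and core scaling. Over the fits without each library it ran from 0 to 3. In B16F10 the count was 0, against 1 under quantile normalization, 1 under core scaling, 2 with the block, 2 with the block without the pair numbered 12 and 13 with the block and core scaling. In MC38 it was 0, against 1 with the compared groups alone, 4 with the block, 6 with the block without the pair numbered 12 and 2 with the block and core scaling. Within either tumour leaving out a library gave 0 to 0. No setting called a member lower between gates. Between tumours the 12 members higher in B16F10 became 35 under core scaling and 34 with the block as well, and the 13 lower became 0 and 0. Leaving out a library gave 11 to 14 higher and 10 to 14 lower.

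Among differences past the threshold in either fit, signs turned in the comparison between tumours. Among differences between gates that did not pass, core scaling turned the sign of 11 members in B16F10, 3 in MC38 and 9 in the mean, such as Gpx1 in B16F10 from -0.15 to 0.20. Between tumours Fth1 turned to 0.26 under quantile normalization. Core scaling, with and without the block, gave 1.48 for Blvrb, 0.70 for Slc11a1, 1.58 for Fth1, 1.93 for Fbxl5, 0.082 for Nfe2l2, 0.58 for Bach1, 1.18 for Slc7a11, 2.16 for Txn1, 1.16 for Srxn1, 0.72 for Prdx5, 2.11 for Gpx1, 2.08 for Cat and 0.85 for Mgst1. These follow from the construction, which moves the difference of all genes by a median of 2.21 and leaves the core genes at a median of 0.65. Pseudocounts of 0.1 and 5 changed none of the 36 single-gene results checked. The block changed no other call than those given beside the results. The causes of the other changes were not tested.

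Fold changes of Nqo1, Slc7a11 and Bach1 are limited by depth, since 1 read is worth more FPKM in B16F10. With 3 libraries a group, a member that missed the threshold is not shown to be equal between gates.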

Other observations

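Markers of other cells also moved with the gate. Xcr1, a marker of cross-presenting dendritic cells, fell in RFP+ cells over both tumours (-0.85 ± 0.15 on the log2 scale, limma adjusted p = 0.031; 0.0126 with the block). It read 1.09, 1.02 and 1.63 FPKM in MC38 RFP+ libraries 1, 2 and 3 and 2.97, 3.61 and 4.80 FPKM in RFP- libraries. Ccr7, a receptor of migrating dendritic cells, fell with the block (-1.15 ± 0.16, limma adjusted p = 0.00462). The 7 dendritic cell genes summed to 10.4 to 16.5 FPKM in B16F10 RFP+ libraries and 24.5 to 49.8 FPKM in RFP- libraries, and to 26.3 to 43.4 and 43.3 to 81.4 FPKM in MC38. Their part in the differences of the heme, iron and antioxidant genes was not tested.

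Of the macrophage core genes, 3 of 15 rose in the mean with the block and 0 fell, against 1.32% and 0.601% of all genes. The 3 were Cd14, a receptor for bacterial lipopolysaccharide (0.60 ± 0.09, limma adjusted p = 0.00571), the lysozyme gene Lyz2 (0.68 ± 0.13, adjusted p = 0.0211) and the integrin gene Itgam (0.43 ± 0.09, adjusted p = 0.0359). Within B16F10 the block called 2 of 15 higher and 0 lower, against 0.83% and 0.525% of all genes. In MC38 it called 0 in either direction, against 0.356% higher and 0.0847% lower. Without the block 0 of 15 passed. The core genes did not move as 1 set. Group means of Csf1r, Aif1 and Spi1 were lower in RFP+ than in RFP- cells of both tumours. For Csf1r they were 117 and 141 FPKM in B16F10 and 574 and 603 FPKM in MC38. Those of C1qa, C1qb and C1qc were lower in RFP+ cells of B16F10 and slightly higher in those of MC38. Of the 6 neutrophil genes tested, Mmp8, a collagenase of neutrophil granules, rose with the block in B16F10 (2.05 ± 0.27, limma adjusted p = 0.00472) and in the mean (1.31 ± 0.19, adjusted p = 0.00641). Retnlg fell with it in B16F10 (-1.89 ± 0.32, limma adjusted p = 0.015) and in the mean (-1.02 ± 0.22, adjusted p = 0.0479). Neither passed without the block, and their part in the members' differences was not tested. The 10 neutrophil genes listed summed to 366 and 844 FPKM in the B16F10 RFP+ and RFP- libraries numbered 3, and to 33.0 to 126 FPKM in the other 4 B16F10 libraries. Red pulp and heme-handling macrophage genes summed to 32.1 to 91.0 FPKM in B16F10 and 58.7 to 107 FPKM in MC38. Summed T and NK cell genes ran from 1.43 to 10.1 FPKM over the 12 libraries, B cell genes from 5.80 to 35.1 FPKM, platelet genes from 0.0931 to 3.50 FPKM and epithelial genes from 1.55 to 13.2 FPKM. Fibroblast genes summed to 1.87 to 3.46 FPKM in B16F10 and 48.3 to 64.7 FPKM in MC38, and endothelial genes to 0.982 to 2.97 and 9.40 to 18.3 FPKM.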
